A study of Mus musculus with 6 samples.

Results

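The genes described here are 8 cathepsins (*Ctsa*, *Ctsb*, *Ctsc*, *Ctsd*, *Ctsk*, *Ctsl*, *Ctss* and *Ctsz*) and 2 cystatins (*Cst3* and *Cstb*), chosen by their symbols as 10 of the 55335 mouse genes in the deposited table. They were measured by RNA-seq in bone marrow-derived macrophages (BMDMs), which were grown from *Cd177* WT marrow for 7 days with 25 ng/ml M-CSF. The BMDMs were then co-cultured for 24 h with neutrophils taken by magnetic sorting from the injured spinal cord at 3 dpi (days post injury). By their labels, 3 of the 6 libraries had received neutrophils of *Cd177* WT mice and 3 those of *Cd177* KO mice, and all of them held macrophages sorted as Ly6G-negative. The knockout was a constitutive *Cd177*-/- line, mice of the study were male, and no library of BMDMs without neutrophils was analysed here. The sources used here do not say whether the 3 libraries of a group came from separate cultures or mice, so each test measures the spread between these libraries, which may be technical.

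Cathepsins are proteases of the endosome and lysosome that are made as inactive precursors, sorted to acidic compartments and activated there by removal of a propeptide. Most are cysteine proteases of the papain family (*Ctsb*, *Ctsc*, *Ctsk*, *Ctsl*, *Ctss*, *Ctsz*), while *Ctsd* encodes an aspartic protease and *Ctsa* a serine carboxypeptidase. Cystatins are small tight-binding inhibitors of the cysteine cathepsins: cystatin C (*Cst3*) is mostly secreted and cystatin B (*Cstb*, also called stefin B) stays in the cell. Macrophages are known for high cathepsin levels, which serve the breakdown of engulfed material and the trimming of antigens for MHC class II.

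Levels are given in FPKM, fragments scaled to transcript length and to the size of the library. This scaling does not by itself make libraries or genes fully comparable. The FPKM of a library summed to between 302532 (WT replicate 2) and 340717 (WT replicate 3). Differences were tested with limma on log2(FPKM + 0.5) in the 13367 genes that averaged 0.5 FPKM or more, and a gene was called at a Benjamini-Hochberg adjusted p-value under 0.05. *Cd177* itself had 0.309 to 0.544 FPKM under the WT label and 1.79 to 2.28 FPKM under the KO label, higher where the knockout is labelled. The sequenced BMDMs carry the intact gene in both groups, so these values neither test their genotype nor settle whether a label is wrong. Of 10 tested neutrophil markers (given below), 9 were also called higher under the KO label and 1 lower. Which cells the *Cd177* RNA came from was not tested. Directions below are given between libraries as labelled. The median log2 difference of all tested genes (KO minus WT) was 0.19 as deposited and -0.01 after median-of-ratios scaling, so a difference near 0.19 lies where the typical gene does. Replicate 3 of each group stood apart by transcript length. On the log2 scale, the 1573 tested genes with a transcript over 6000 bases lay lower in replicate 3 than in replicates 1 and 2 by a median of -0.42 (WT) and -0.22 (KO), and the 2902 genes whose longest transcript is under 1500 bases lay higher by 0.28 and 0.05. Results are therefore also given without both of these libraries where that changes them, an alternative added after the data were seen.

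All 10 genes passed the filter on low values, and they split into a group that was lower in the libraries labelled KO and a group that stayed near the typical gene. *Ctsk*, *Cstb*, *Ctsz*, *Ctsl* and *Ctss* were lower, with 1.43-fold to 2.25-fold less FPKM on average, and passed the test. *Ctsd* was 1.28-fold higher and passed narrowly, while *Ctsa*, *Ctsb*, *Ctsc* and *Cst3* had higher mean values that did not pass. Thus 6 of 10 genes were called, where 37.6% of all tested genes were. Of these 5 were called lower, where 10.5% of all tested genes were, and 1 was called higher, where 27.1% of all tested genes were. In 5 genes every library labelled KO lay below every library labelled WT (14.4% of all tested genes), in 4 every one lay above (37.5%), and *Cst3* overlapped, while 51.9% of all tested genes did not overlap in either direction. With the cut-offs of the study, more than 2-fold and an unadjusted p-value under 0.05, *Ctsk* and *Cstb* were lower (2 of 10 genes, against 4.43% of all tested genes) and none was higher (against 6.68%, or 11.1% in either direction). The median log2 difference was -0.19 over the 10 genes and 0.19 over all tested genes. Fewer cells of a type and less RNA per cell cannot be told apart in these bulk libraries.

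**Figure D1:**
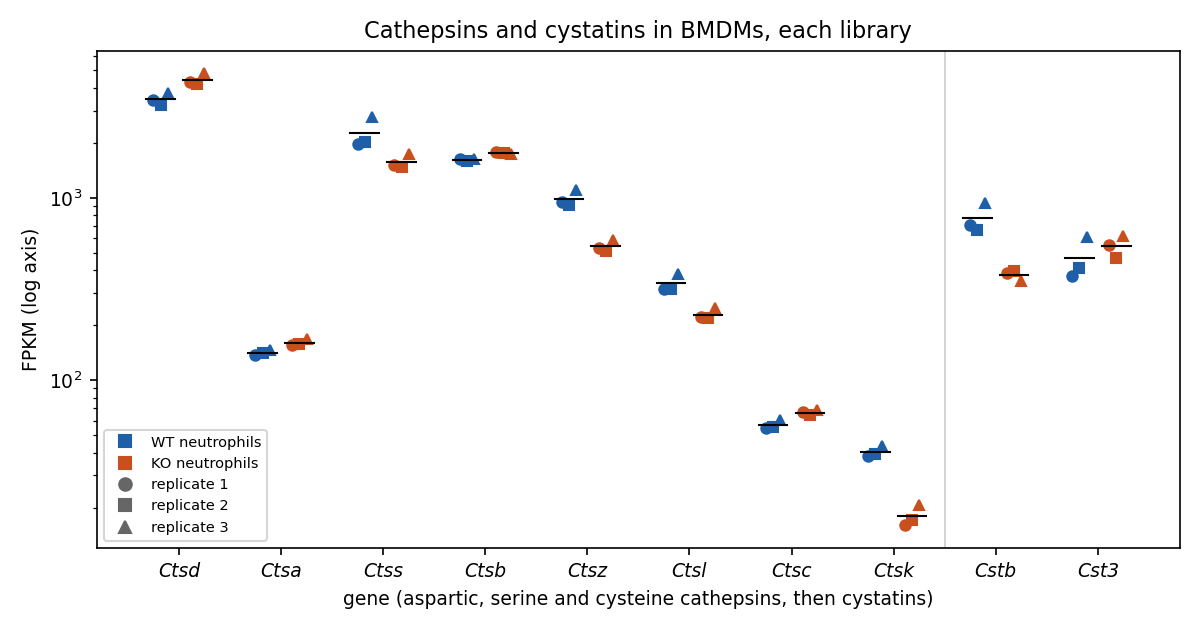
FPKM (log axis) of the 8 cathepsins and 2 cystatins in each of the 6 libraries, blue for libraries labelled WT and orange for those labelled KO, with a marker shape for each replicate number and a black bar for the group mean. *Ctss*, *Ctsz*, *Ctsl*, *Ctsk* and *Cstb* are lower without overlap in the libraries labelled KO, and WT replicate 3 is the highest WT library in each of the 10 genes.

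Promoter sequences are shown for *Ctsd* and *Ctsa*, which are textbook targets of the lysosomal factor TFEB through E-boxes, for *Ctss*, which is known as interferon-inducible, and for *Ctsk*, the gene with the largest fall, since transcripts of these regulators were measured as well. Each is printed from 250 bases before a RefSeq transcript start to 20 bases after it (GRCm38.p6), with the letters of a matched motif in capitals.
*Ctsd* promoter, chr7:142387808-142388077, minus strand: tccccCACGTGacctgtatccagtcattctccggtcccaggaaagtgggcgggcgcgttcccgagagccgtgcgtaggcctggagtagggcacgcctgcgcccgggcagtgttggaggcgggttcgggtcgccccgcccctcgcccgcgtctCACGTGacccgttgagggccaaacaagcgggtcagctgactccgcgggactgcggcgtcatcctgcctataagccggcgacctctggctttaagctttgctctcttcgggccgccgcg
*Ctsa* promoter, chr2:164833523-164833792, plus strand: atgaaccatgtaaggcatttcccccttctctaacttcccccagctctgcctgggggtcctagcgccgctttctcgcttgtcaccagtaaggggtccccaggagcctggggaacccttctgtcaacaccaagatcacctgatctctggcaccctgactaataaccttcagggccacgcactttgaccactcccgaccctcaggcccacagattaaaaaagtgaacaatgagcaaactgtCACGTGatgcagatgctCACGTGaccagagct
*Ctss* promoter, chr3:95526536-95526805, plus strand: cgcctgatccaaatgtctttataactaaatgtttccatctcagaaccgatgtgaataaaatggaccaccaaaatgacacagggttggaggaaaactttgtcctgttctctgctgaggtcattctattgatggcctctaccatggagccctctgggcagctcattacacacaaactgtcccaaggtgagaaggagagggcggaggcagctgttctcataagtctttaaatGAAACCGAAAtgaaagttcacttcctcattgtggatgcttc
*Ctsk* promoter, chr3:95498960-95499229, plus strand: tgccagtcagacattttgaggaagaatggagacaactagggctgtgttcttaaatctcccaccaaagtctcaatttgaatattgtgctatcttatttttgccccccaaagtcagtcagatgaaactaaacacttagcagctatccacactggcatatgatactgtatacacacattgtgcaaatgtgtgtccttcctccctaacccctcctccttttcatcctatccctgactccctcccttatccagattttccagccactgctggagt

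RefSeq windows of 300 bases (250 before and 50 after a start) were found for 8 of the 10 genes, with 2 windows for *Ctsa*. They were searched on both strands for CACGTG (the E-box), for TCACGTG (the same with a flanking T, so every match also counts as an E-box) and for the core of the interferon-stimulated response element (GAAA and GAAA with any 2 bases between). *Ctsd* held the E-box 245 and 98 bases upstream of its start, and the *Ctsa* window shown held it 12 bases upstream and at base 6 of the transcript, each with the flanking T. The other *Ctsa* window, from 164832622 to 164832921, spans the annotated gene start and held none of these 3 motifs. *Ctsl* held an E-box without the flanking T, 236 bases upstream. Of all 32851 windows, 7.15% held the E-box and 3.77% the longer form. *Ctss* held the interferon-stimulated response element letters 21 bases upstream (3.44% of all windows did), and the windows of *Ctsc*, *Ctsk*, *Ctsz* and *Cst3* held none of these 3 motifs. A match of letters is not a bound site, and nothing was measured on binding.

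*Ctsd* (ENSMUSG00000007891, chromosome 7 from 142375911 to 142388038, minus strand, all positions being those of GENCODE M21 on GRCm38) encodes cathepsin D, the main aspartic protease of the lysosome. It had 3451, 3217 and 3775 FPKM in WT replicates 1, 2 and 3 and 4309, 4216 and 4818 FPKM in KO replicates 1, 2 and 3. It ranked between 5 and 10 among all genes of a library, and its groups did not overlap. The log2 difference was 0.35 (standard error 0.11, adjusted p = 0.043, limma). The call did not hold after median-of-ratios scaling (log2 difference 0.12, adjusted p = 0.523, limma), after upper-quartile scaling (adjusted p = 0.109, limma) or with no filter on low values (adjusted p = 0.527, limma). It was also lost without any one library other than WT replicate 3 (adjusted p between 0.102 and 0.124, limma). Without WT replicate 3 the adjusted p of *Ctsd* was 0.0115 (limma).

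*Ctsa* (ENSMUSG00000017760, chromosome 2 from 164832873 to 164841032) encodes cathepsin A, which trims peptides and also shields the lysosomal enzymes neuraminidase 1 and beta-galactosidase in a shared complex. It had 138, 140 and 146 FPKM under the WT label and 156, 157 and 168 FPKM under the KO label. All KO values lay above all WT values, yet the log2 difference of 0.18 (95% interval -0.00054 to 0.36, adjusted p = 0.107, limma) was that of the median gene. After median-of-ratios scaling it was -0.050.

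Among the cysteine endopeptidases, *Ctss* and *Ctsb* were the most abundant. *Ctss* (ENSMUSG00000038642, chromosome 3 from 95526786 to 95556403) encodes cathepsin S, which cleaves the invariant chain in antigen-presenting cells and, unlike most of its relatives, stays active near neutral pH. It had 1973, 2018 and 2775 FPKM under the WT label and 1520, 1485 and 1739 FPKM under the KO label. WT replicate 3 lay far above the other WT libraries, but also without it the groups did not overlap. The log2 difference was -0.50 (standard error 0.16, adjusted p = 0.0438, limma). As with *Ctsd*, leaving out any one library other than WT replicate 3 took the adjusted p of *Ctss* past the threshold, to between 0.056 and 0.139 (limma). With no filter on low values it was 0.236 (limma). Median-of-ratios scaling gave a log2 difference of -0.73 (adjusted p = 0.0213, limma).

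*Ctsb* (ENSMUSG00000021939, chromosome 14 from 63122462 to 63145923), which encodes an endopeptidase that also removes dipeptides from carboxy termini, was the steadiest of the abundant genes. It had 1630, 1588 and 1630 FPKM under the WT label and 1783, 1760 and 1735 FPKM under the KO label. These groups did not overlap, but the step was 8.89% of the WT mean. Its log2 difference of 0.12 did not pass (95% interval -0.07 to 0.31, adjusted p = 0.271, limma) and was -0.11 after median-of-ratios scaling.

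*Ctsl* (ENSMUSG00000021477, chromosome 13 from 64359337 to 64370890) encodes cathepsin L, a broad lysosomal endopeptidase. It had 317, 316 and 384 FPKM under the WT label and 221, 218 and 247 FPKM under the KO label. Every KO library was lower than every WT library, with a log2 difference of -0.56 (standard error 0.11, adjusted p = 0.00717, limma). The adjusted p stayed between 0.000774 and 0.0368 over 17 alternatives in limma.

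*Ctsk* (ENSMUSG00000028111, chromosome 3 from 95499256 to 95509362) encodes cathepsin K, known as the collagen-degrading protease of osteoclasts and made by activated macrophages and fibroblasts as well. It was the least abundant of the 10 genes and had the lowest KO to WT ratio. The libraries labelled WT had 38.2, 39.1 and 43.5 FPKM and those labelled KO 16.0, 17.1 and 20.7 FPKM. The highest KO value was thus well under the lowest WT value. The log2 difference of *Ctsk* was -1.15 (standard error 0.12, adjusted p = 0.000476, limma), and it lay between -1.38 and -1.08 over the alternatives, all of which kept the call. *Ctsk* and *Ctss* are neighbours, with 17423 bases between the annotated end of *Ctsk* and start of *Ctss*. Both were lower, but *Ctsk* more so: the ratio of *Ctsk* to *Ctss* within a library was 0.0157 to 0.0194 in WT and 0.0105 to 0.0119 in KO.

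The exopeptidases went separate ways. *Ctsz* (ENSMUSG00000016256, chromosome 2 from 174427493 to 174439039) encodes cathepsin Z, also called cathepsin X, which removes single residues from carboxy termini. It had 949, 910 and 1103 FPKM under the WT label and 530, 514 and 588 FPKM under the KO label, so the highest KO value was far below the lowest WT value. Its log2 difference was -0.86 (standard error 0.11, adjusted p = 0.0012, limma), and the call held in all 17 alternatives. *Ctsc* (ENSMUSG00000030560, chromosome 7 from 88278085 to 88310888) encodes the dipeptidyl peptidase that activates granule serine proteases. It had 54.6, 55.5 and 60.6 FPKM under the WT label and 66.6, 64.0 and 68.7 FPKM under the KO label. All KO values were above all WT values, but the log2 difference of 0.22 did not pass (95% interval 0.03 to 0.41, adjusted p = 0.0668, limma). It was -0.0057 after median-of-ratios scaling.

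The cystatins also differed from each other. *Cstb* (ENSMUSG00000005054, chromosome 10 from 78425669 to 78427622), the inhibitor inside the cell, had 706, 667 and 939 FPKM under the WT label and 386, 399 and 348 FPKM under the KO label. The groups were wide apart, with a log2 difference of -1.01 (standard error 0.14, adjusted p = 0.00206, limma). Without replicate 3 of either group it was -0.81, and the call held. *Cst3* (ENSMUSG00000027447, chromosome 2 from 148871722 to 148875692), the secreted inhibitor, had 374, 410 and 613 FPKM under the WT label and 551, 470 and 616 FPKM under the KO label. WT replicate 3 lay among the KO values, and the log2 difference of 0.25 did not pass (95% interval -0.23 to 0.73, adjusted p = 0.363, limma). Without WT replicate 3 it was 0.47 (adjusted p = 0.0256, limma). With all 6 libraries it was 0.024 after median-of-ratios scaling (adjusted p = 0.946, limma) and 0.17 after upper-quartile scaling (adjusted p = 0.574, limma). *Cst3* was called in 2 of 17 alternatives, both without WT replicate 3, so its reading rests on that library and on the scaling. The longest annotated transcripts of *Cst3* and *Cstb* have 860 and 603 bases, the shortest of the 10 genes, and short transcripts were higher in WT replicate 3 as described above. The part of transcript length in these values was not tested.

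**Figure D2:**
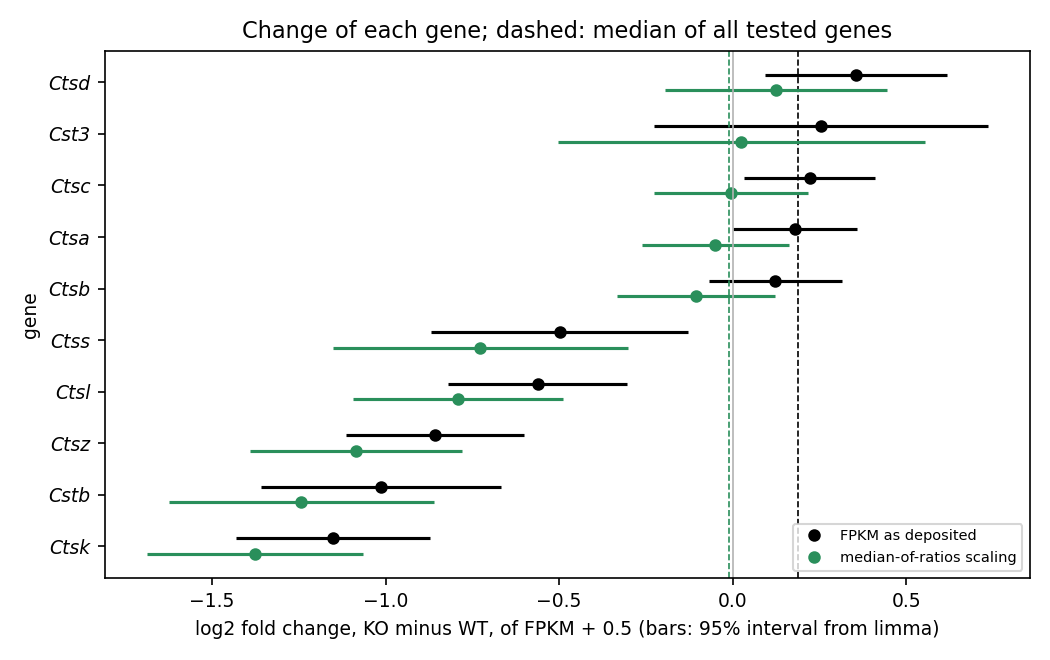
Log2 difference (KO minus WT) of each gene with its 95% interval from limma, with FPKM as deposited in black and after median-of-ratios scaling in green, and dashed lines at the median of all tested genes under each. *Ctss*, *Ctsl*, *Ctsz*, *Cstb* and *Ctsk* lie below 0 under both, and the other 5 genes lie around the dashed lines.

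The scaling between libraries decided the sign of small differences and not of the large ones. As deposited, 72.0% of the called genes were higher (3619 higher, 1408 lower), and with median-of-ratios scaling 47.7% were (2057 higher, 2259 lower). Under that scaling 32.3% of all tested genes were called, 16.9% lower and 15.4% higher, and of the 10 genes the same 5 were called lower and none higher. *Ctsa*, *Ctsb* and *Ctsc* changed sign. Removing replicate 3 of both groups, the libraries with the transcript length shift, gave 5 genes called lower and 5 called higher. Of all 13484 genes tested in that setting, 6469 were called, 1954 lower and 4515 higher. *Cst3*, *Ctsa*, *Ctsb*, *Ctsc* and *Ctsd* were those called higher, with log2 differences from 0.14 to 0.38 where the typical tested gene had 0.18.

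Ratios within a library do not depend on scaling between libraries. The ratio of *Ctsd* to *Ctss* was 1.36 to 1.75 under the WT label and 2.77 to 2.84 under the KO label. *Ctsd* made up 39.1% ± 1.17 (SD, n = 3) of the summed FPKM of the 8 cathepsins in WT and 50.5% ± 0.751 (SD, n = 3) in KO. *Ctsb* stood at 1.48 to 1.74 times the level of *Ctsz* in WT and at 2.95 to 3.42 times in KO. None of these ratios overlapped between the groups. By contrast, the ratio of *Ctsl* to *Ctss* was 0.138 to 0.161 in WT and 0.142 to 0.147 in KO, where the groups overlapped.

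Between the inhibitors the order turned: *Cst3* stood at 0.530 to 0.654 times the level of *Cstb* under the WT label and at 1.18 to 1.77 times under the KO label. The summed FPKM of both cystatins was 1077 to 1552 in WT and 869 to 964 in KO, and that of the 6 cysteine cathepsins was 4926 to 5996 in WT and 4059 to 4398 in KO. Both sums were lower without overlap, and the transcript ratio of cysteine cathepsins to cystatins overlapped, with 3.86 to 4.59 in WT and 4.42 to 4.67 in KO. All 10 genes together took 3.09% to 3.37% of a library's summed FPKM in WT and 3.05% to 3.21% in KO. These sums and ratios are descriptions, since the genes were chosen with results known, and exact permutation of 3 libraries against 3 could not give a p-value below 0.1.

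**Figure D3:**
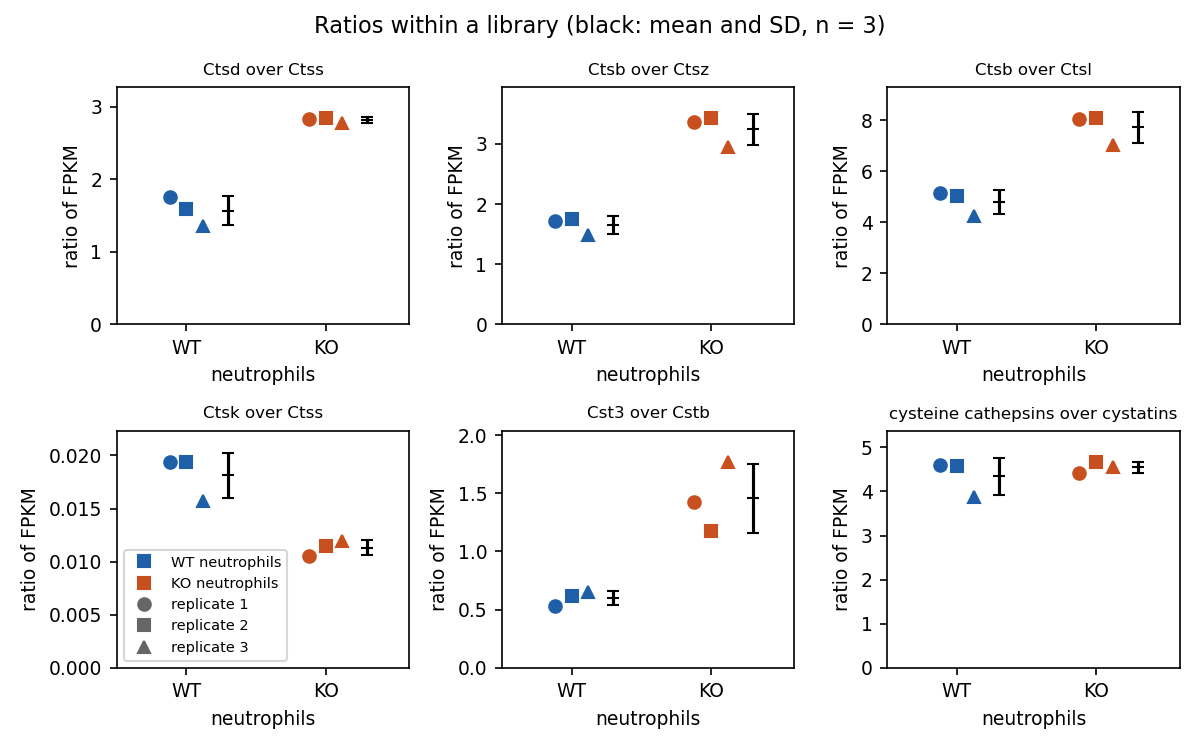
Ratios of FPKM within each library (linear axes from 0), WT in blue and KO in orange, with the mean and SD of the 3 libraries of a group in black. *Ctsd* to *Ctss*, *Ctsb* to *Ctsz*, *Ctsb* to *Ctsl* and *Cst3* to *Cstb* are higher and *Ctsk* to *Ctss* is lower in KO without overlap, whereas cysteine cathepsins to cystatins overlap.

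Genes around the cathepsins were taken from 7 lists drawn from general knowledge. Of their genes 42 were tested and 23 called, 12 higher and 11 lower. Among all tested genes, 27.1% were called higher and 10.5% lower. Among 15 other cathepsins, 3 were tested and all passed, with *Ctso* and *Ctsf* higher and *Ctsh* lower. *Ctsh*, an aminopeptidase, had 68.2, 64.3 and 73.2 FPKM under the WT label and 34.1, 34.9 and 39.3 FPKM under the KO label (log2 difference -0.92, adjusted p = 0.000468, limma). It thus stood with the lower group. *Ctso* rose from 4.45 ± 0.242 to 9.90 ± 0.699 FPKM (SD, n = 3 each, log2 difference 1.07, adjusted p = 0.000261, limma) and *Ctsf* from 1.49 ± 0.306 to 2.92 ± 0.322 FPKM (SD, n = 3 each, log2 difference 0.79, adjusted p = 0.00732, limma). *Ctsg*, the neutrophil granule serine protease, had at most 0.37 FPKM in any library and was under the filter. *Ctse*, *Ctsj* and *Ctsw* stayed under it too, and the remaining 8 were listed at 0 in all 6 libraries.

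Among 20 other cystatins and stefins, 18 were found in the table and 2 were tested. *Cst7* encodes cystatin F, which is sorted to lysosomes and inhibits cathepsin C among others. It had 6.48, 5.81 and 7.24 FPKM under the WT label and 0.808, 0.682 and 0.220 FPKM under the KO label, the largest change of any cathepsin or cystatin tested (log2 difference -2.75, adjusted p = 0.000227, limma). *Stfa2l1*, of the stefin A cluster, rose from 0.512 ± 0.253 to 2.18 ± 0.735 FPKM (SD, n = 3 each, log2 difference 1.40, adjusted p = 0.00712, limma). Stefin A genes are near-identical copies that neutrophils are known to express, so reads may have been split between them and the value is uncertain.

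Of 9 genes that activate or otherwise restrain cathepsins and related proteases, 4 were higher and 3 lower, or 2 and 3 with median-of-ratios scaling. *Lgmn* encodes legumain, a lysosomal protease that processes cathepsin precursors and is itself inhibited by cystatin C. It had 345, 335 and 399 FPKM under the WT label and 608, 604 and 642 FPKM under the KO label (log2 difference 0.78, adjusted p = 0.00105, limma). Legumain was thus higher while 5 cysteine cathepsins of the lysosome, *Ctsh* included, were lower. *Ctso* and *Ctsf* were higher as well, and *Ctsb* and *Ctsc* were not called. *Serpina3f* and *Serpinb9*, which encode serpins, the latter known for inhibiting granzyme B, had log2 differences of -2.78 and -1.80 (adjusted p = 2.04e-05 and 3.3e-05, limma). *Serpinb6b* rose by 0.81 (adjusted p = 0.0151, limma), but not with median-of-ratios scaling (adjusted p = 0.0541, limma), quantile normalization (adjusted p = 0.059, limma) or without KO replicate 1 (adjusted p = 0.0583, limma).

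Lysosomal sorting genes also diverged, with 2 of 7 higher and 1 lower, or 2 and 2 with median-of-ratios scaling. *M6pr*, the cation-dependent mannose 6-phosphate receptor that carries newly made hydrolases, had 91.4, 85.5 and 85.7 FPKM under the WT label and 47.2, 48.4 and 47.0 FPKM under the KO label (log2 difference -0.87, adjusted p = 0.000205, limma). *Igf2r*, the other such receptor, did not pass (log2 difference -0.03, 95% interval -0.70 to 0.64, adjusted p = 0.945, limma) and replicate 3 was the lowest library of both groups. *Sort1*, which encodes sortilin, an alternative carrier, had 7.69, 8.46 and 5.16 FPKM under the WT label and 24.1, 25.4 and 20.1 FPKM under the KO label (log2 difference 1.66, adjusted p = 0.000758, limma). *Nagpa*, the enzyme that uncovers the mannose 6-phosphate tag, rose from 11.2 ± 2.07 to 25.9 ± 2.79 FPKM (SD, n = 3 each, log2 difference 1.18, adjusted p = 0.00136, limma).

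In the list of antigen processing partners, 2 of 8 genes were lower and 1 was higher, and with median-of-ratios scaling 4 were lower and none higher. *H2-Ab1* and *H2-Aa*, chains of MHC class II, had log2 differences of -0.86 and -0.36 (adjusted p = 0.00248 and 0.0127, limma), the second not passing without KO replicate 1 or KO replicate 2 (adjusted p = 0.0632 and 0.0541, limma). *Cd74*, the invariant chain that cathepsin S cleaves, had 118, 111 and 168 FPKM under the WT label and 97.8, 80.9 and 96.4 FPKM under the KO label. Its log2 difference of -0.51 just missed the threshold (adjusted p = 0.0565, limma). It passed with median-of-ratios (-0.74), upper-quartile, TPM and quantile scaling (adjusted p between 0.0251 and 0.0368, limma) and with a replicate block (adjusted p = 0.022, limma). It also passed without WT replicate 2 (adjusted p = 0.0489, limma) and without WT replicate 3 (adjusted p = 0.0439, limma). With other pseudocounts or filters, a robust variance or without WT replicate 1 it did not pass (adjusted p between 0.0559 and 0.126, limma). *Ifi30*, the thiol reductase that unfolds antigens before cathepsins cut them, had a log2 difference of 0.01 that did not pass (95% interval -0.27 to 0.30). *H2-DMb2*, at 0.458 and 1.02 FPKM on average, was called higher (adjusted p = 0.0312, limma) but not after median-of-ratios scaling (adjusted p = 0.0753, limma), nor without any one library other than WT replicate 3.

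Of the partners of cathepsin A and of prosaposin and progranulin, 1 of 4 changed. *Neu1*, the neuraminidase that cathepsin A protects, had 33.1, 33.6 and 33.8 FPKM under the WT label and 26.0, 26.7 and 25.8 FPKM under the KO label, a small and even difference (log2 difference -0.35, adjusted p = 0.00821, limma). *Glb1* and *Psap* did not pass, with log2 differences of 0.13 and -0.07 (adjusted p = 0.213 and 0.564, limma). *Psap*, the precursor of the saposins that cathepsin D cleaves, averaged 3771 FPKM in WT and 3588 FPKM in KO, close to the level of *Ctsd* in WT.

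Of 10 transcription factors listed, 9 were tested, of which 2 were higher and 2 lower. *Tfeb* and *Mitf*, factors of the family that drives lysosomal genes, were higher with log2 differences of 0.79 and 0.57 (adjusted p = 0.00446 and 0.00397, limma). *Tfe3* and *Tfec*, of the same family, did not pass, with log2 differences of 0.01 and 0.16 (adjusted p = 0.933 and 0.256, limma). *Tfeb* had 3.83, 3.53 and 3.24 FPKM under the WT label and 6.76, 7.36 and 5.37 FPKM under the KO label. *Irf1*, a factor of the interferon response, had 45.5, 44.9 and 52.4 FPKM under the WT label and 11.1, 11.6 and 12.0 FPKM under the KO label, with no overlap (log2 difference -1.99, adjusted p = 1.44e-05, limma).

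**Figure D4:**
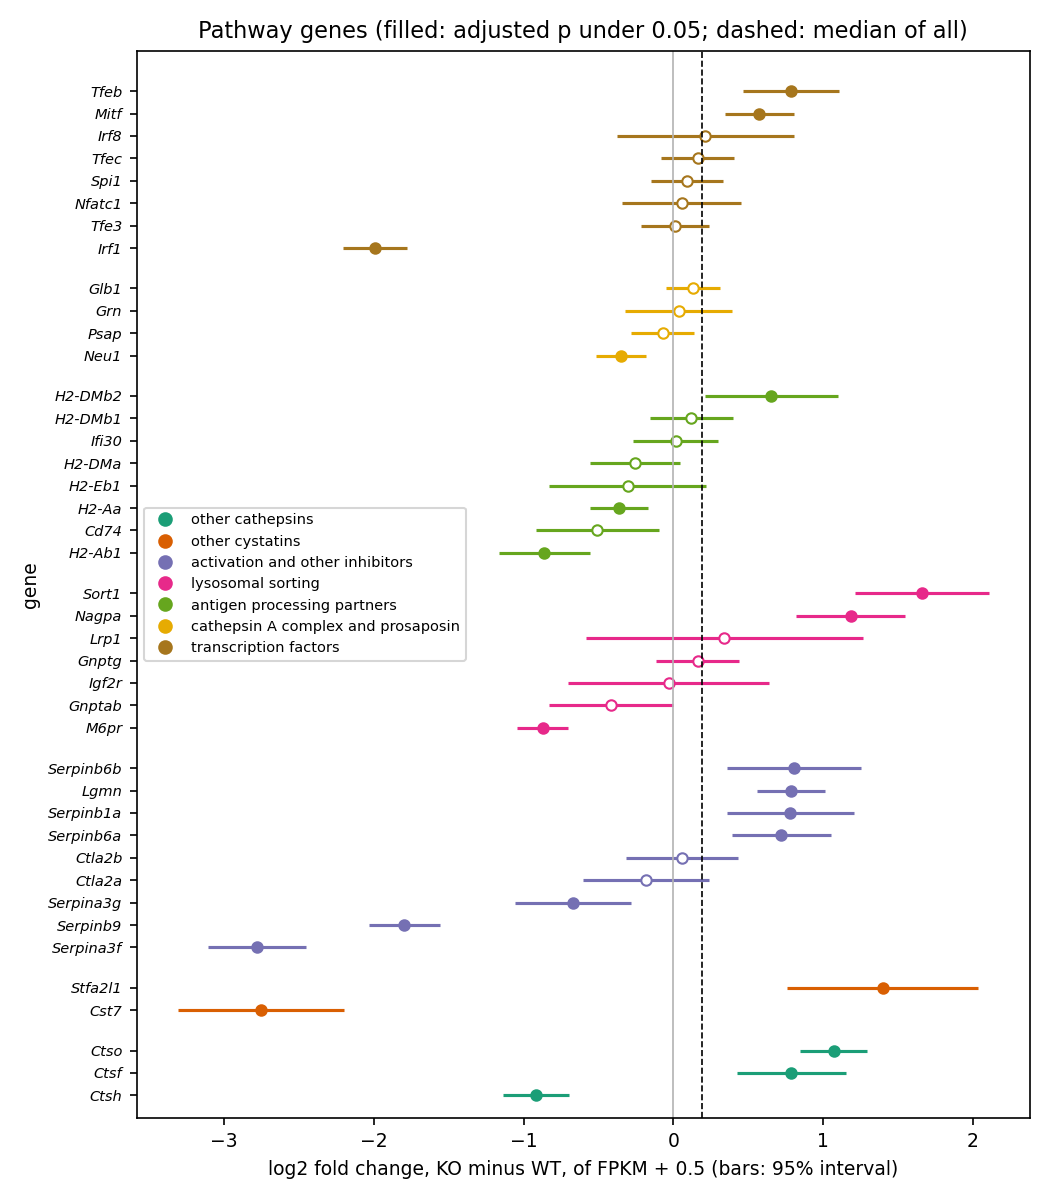
Log2 difference (KO minus WT) with its 95% interval for tested genes of the 7 lists, coloured by list, filled where the adjusted p-value was under 0.05, with a dashed line at the median of all tested genes. *Serpina3f* and *Cst7* lie farthest to the left and *Sort1* farthest to the right, and most lists hold genes on both sides.

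Markers of other cells were read beside these results, and their part in the values above was not tested. Macrophage markers were abundant in all libraries, with a summed 7156 to 8625 FPKM in WT and 8079 to 8898 FPKM in KO over 10 genes, of which 3 were called higher and 2 lower. *Lyz2* made up most of the sum (mean 4922 FPKM in WT and 6144 FPKM in KO). *Adgre1*, *Mertk* and *C1qa* were those higher. The lower genes were *Cd14* (mean 1010 FPKM in WT and 99.4 FPKM in KO) and *Fcgr1* (121 and 33.8 FPKM). Of 14 neutrophil markers, 10 were tested and all were called, 9 higher and 1 (*Mmp8*) lower in KO, and their sum was 189 to 250 FPKM in WT and 541 to 554 FPKM in KO. *Ly6g* was listed at 0 in WT and had 0.403 to 0.660 FPKM in KO. Of 8 osteoclast markers, which bear on *Ctsk*, 5 were tested, 2 lower (*Acp5* and *Dcstamp*) and none higher. With median-of-ratios scaling 4 of the 5 were lower and none higher. Among all tested genes, 10.5% were called lower as deposited and 16.9% with that scaling. The osteoclast markers summed to 193 to 200 FPKM in WT and 177 to 180 FPKM in KO, and *Calcr* was listed at 0 in all 6 libraries. Stromal collagens were present as well: the 4 stroma markers summed to 347 to 509 FPKM in WT and 452 to 510 FPKM in KO, with 1 lower (*Dcn*) and none higher. Of 6 B cell markers the 2 tested (*Cd79b* and *Ighm*) were higher, while *Ms4a1* and *Pax5* had at most 0.0447 FPKM, and no T, NK or dendritic cell marker was tested. Of 7 spinal cord markers *Mbp* alone was tested, and it was not called.

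The genes closest in pattern were sought for the member with the largest rise and the one with the largest fall, among 4290 genes averaging 10 FPKM or more, by the Euclidean distance of log2 values centred on each gene's mean over the 6 libraries. For *Ctsd* they were *Mkrn1*, *Sae1* and *Ppp1cb* (distances 0.0809, 0.0901 and 0.0913). For *Ctsk* they were *Dnajb9*, *Lgals9* and *Ccl9* (distances 0.134, 0.154 and 0.158). *Ccl9*, a chemokine, had 155, 160 and 185 FPKM under the WT label and 67.6, 68.8 and 77.3 FPKM under the KO label, with replicate 3 the highest of each group as in *Ctsk*.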

How the data were processed

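RNA-seq of 6 BMDM libraries, 3 per group, was analysed from FPKM that the authors deposited per Ensembl gene. The submitters' processing notes name fastp 0.17.1, HISAT2 2.1.0, DESeq2 1.18.1 and R 3.4.3. The quantification tool, annotation and genome build are not given in the sources used here, and labels and methods name different kits and sequencers. Of 55335 identifiers, 99.7% matched GENCODE M21. FPKM times transcript length piled up in steps for genes with 1 transcript, but only 39.7% to 43.5% of the low values were within 0.1 of a whole step (20% by chance), so counts were not recovered. The steps imply about 1.76e+07 to 2.03e+07 fragments per library.

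log2(FPKM + 0.5) was tested with limma 3.58.1 (R 4.3.3, two-sided, eBayes with a mean-variance trend) between the groups with no covariate, in the 13367 genes averaging 0.5 FPKM or more. This scale understates changes of low genes. On simulated libraries, 120 of 200 genes changed by 1 on the log2 scale were recovered among 13367, with 4 false calls. Far fewer genes were changed there than the 5027 called in the data, and the noise was drawn independently for each library. These rates therefore need not carry over. Alternatives were pseudocounts 0.1 and 1, other filters, 4 scalings, a robust variance, a replicate block and left-out libraries. Genes named were all 10 members, the up to 4 largest called changes of each of the 7 lists, 13 genes fixed by name, and the closest patterns. Single marker genes, low cathepsins, *Tfe3* and *Tfec* were named after their values were seen. Some genes counted in the lists are not reported here. Members and lists were chosen with earlier results of these data known. Python 3.11.15 (pandas 2.3.3, matplotlib 3.10.9) drew the figures.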

Additional observations from a re-analysis of the deposited data

How the results depend on the processing

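*Ctsk*, *Ctsl*, *Ctsz* and *Cstb* were called lower under all 17 alternatives, *Ctss* under 11 and *Ctsd* higher under 9. Of the 10 genes, 0 were called higher without a filter on low values, where 3180 of all 28101 tested genes were. With median-of-ratios scaling 0 were (2057 of all 13367 tested genes) and with upper-quartile scaling 0 (2878 of 13367). With TPM 2 were (3477 of 13367), with quantile normalization 3 (2426 of 13367) and with the replicate block 2 (4253 of 13367). Without WT replicate 3 it was 4 (4259 of 13469), and without any other one library 0 (2420 to 2965 of all tested genes). Without replicate 3 of either group 5 were called higher (10 called in all). In that last setting 6469 of all 13484 tested genes were called, 4515 of them higher. The count past the study's threshold was 1 with TPM, with quantile normalization and without replicate 3 of either group, 3 with median-of-ratios scaling (*Ctsz* added), and 1 to 2 with one library left out. With a mean of at least 5 FPKM, 15 pathway genes were called instead of 23, 7 of them higher, since fewer were tested. Of all 6835 genes tested there, 2739 were called, 1756 of them higher. Signs turned with median-of-ratios scaling for *Ctsa* (-0.050), *Ctsb* (-0.11), *Ctsc* (-0.0057), *Glb1* (-0.093) and *Ifi30* (-0.21), with upper-quartile scaling for *Ifi30* (-0.073), and with one library left out for *Ifi30* (-0.054 to 0.12) and *Igf2r* (-0.33 to 0.16). With one library left out, the log2 ratio (KO to WT) of the 10 genes' sum ran from -0.12 to 0.035, the highest without WT replicate 3. That of cysteine cathepsins to cystatins ran from -0.011 (without WT replicate 3) to 0.109. Deviations of same-numbered libraries correlated by 0.116, 0.036 and 0.264 for numbers 1, 2 and 3, so the numbers were not taken to pair them. The replicate block called 5934 genes in all instead of 5027. The cause of these shifts was not tested. Genes under the filter on low values, *Ctsg* among them, were too low to be tested.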
